A study of Homo sapiens with 8 samples.

Results

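Glioma lineage and stemness markers are the genes by which tumour cells of the astrocyte and oligodendrocyte lineages, and the cells within them that resemble neural precursors, are commonly recognised. The 10 genes described here are GFAP, NES, VIM, SOX2, SOX9, OLIG2, PROM1, CD44, PDGFRA and CHI3L1, taken from the deposited count file by their symbols. All 10 were among its 26364 genes, and 6 of them (NES, VIM, SOX2, OLIG2, CD44 and PDGFRA) were among the 14201 genes with enough reads to be tested. GFAP, SOX9, PROM1 and CHI3L1 did not pass this filter on low counts and are given by their read counts.

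RNA was sequenced from LN229, a human glioblastoma cell line without MGMT that has functional mismatch repair and p53. Each of the 2 stable lines is a single clone selected with G418, which was in the medium of every group. Clone D6 (Surv-GFP) carries survivin fused to eGFP with a working nuclear export sequence, and clone L2 (SurvNESmut-GFP) carries the same fusion with the changes L96A and L98A in that sequence, by which the protein is held mainly in the nucleus. Cells were untreated or exposed to 50 µM temozolomide (TMZ), a methylating drug of glioma therapy, for 48 h, which gave 4 groups of 2 libraries lettered a and b. The labels and methods do not say whether untreated cells received DMSO, the solvent of TMZ. The study's text speaks of independent biological replicates, each in technical duplicates, but does not say which of these the letters mark, so p-values measure only the spread between these libraries, which may be technical. As each construct is 1 clone, clone and construct cannot be told apart.

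Gene counts summed to between 15826923 and 18861603 reads a library. Libraries of one group correlated at 0.994 or higher across genes and libraries of different groups at 0.986 or lower, and the letters of each group differed by more than sampling noise, so none was a second copy. The TMZ-exposed SurvNESmut-GFP libraries lay furthest apart, with a chi-square per degree of freedom of 5.54 beside 2.16 to 2.58 in the other groups, and their library a had the highest share of reads outside genes (14.3%, beside 11.2% to 12.8% in the other libraries). CDKN1A, a p53 target used here as a check of exposure, was 11.5-fold higher upon TMZ in Surv-GFP and 3.89-fold higher in SurvNESmut-GFP. BIRC5, the survivin gene, whose count cannot separate the transgene from the endogenous transcript, was 1.75-fold higher upon TMZ in Surv-GFP and 1.59-fold lower in SurvNESmut-GFP (adjusted p of 2.07e-10 and 1.3e-08, edgeR's quasi-likelihood F test).

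The markers fall into 4 classes. GFAP, nestin (NES) and vimentin (VIM) are intermediate filament proteins, of which GFAP belongs to differentiated astrocytes, nestin to neural precursors and vimentin to mesenchymal and immature glial cells. SOX2, SOX9 and OLIG2 are transcription factors of neural stem cells and glial precursors, and OLIG2 and SOX2 are needed in many glioma stem cell cultures. Prominin-1 (PROM1, CD133), CD44, a receptor for hyaluronan, and PDGFRA, a receptor for platelet-derived growth factors, lie at the cell surface. CHI3L1 is a secreted chitinase-like protein that, with CD44 and VIM, is used to name the mesenchymal state of glioblastoma, whereas OLIG2, SOX2 and PDGFRA are used to name the proneural state.

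The start regions of 5 of these genes are shown, namely NES, VIM, SOX2 and PDGFRA, which were lower upon TMZ in both clones, and CD44, which was not. RefSeq (GRCh38.p14) gave windows from 250 bases before to 50 bases after a start for 7 of the 10 markers, 11 windows in all. Windows for GFAP, SOX9 and OLIG2 were not used here. Capitals mark the CCAAT box (CCAAT or ATTGG), the core letters of a SOX site (ACAAT or ATTGT) and the E-box (CANNTG), the class of site read by basic helix-loop-helix factors such as OLIG2.
NES, chr1:156677358-156677657, minus strand: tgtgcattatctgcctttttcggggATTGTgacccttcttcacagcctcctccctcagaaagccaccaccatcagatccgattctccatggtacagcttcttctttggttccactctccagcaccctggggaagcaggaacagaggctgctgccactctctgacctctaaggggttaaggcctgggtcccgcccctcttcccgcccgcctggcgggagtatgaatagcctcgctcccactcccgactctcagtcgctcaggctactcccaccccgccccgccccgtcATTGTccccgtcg
VIM, chr10:17227991-17228290, plus strand: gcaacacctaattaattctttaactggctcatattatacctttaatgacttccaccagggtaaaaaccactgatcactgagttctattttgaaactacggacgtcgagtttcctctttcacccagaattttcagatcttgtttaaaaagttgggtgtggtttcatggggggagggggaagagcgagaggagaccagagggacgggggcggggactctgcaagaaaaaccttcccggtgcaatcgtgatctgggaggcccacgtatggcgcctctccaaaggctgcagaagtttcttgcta
SOX2, chr3:181711675-181711974, plus strand: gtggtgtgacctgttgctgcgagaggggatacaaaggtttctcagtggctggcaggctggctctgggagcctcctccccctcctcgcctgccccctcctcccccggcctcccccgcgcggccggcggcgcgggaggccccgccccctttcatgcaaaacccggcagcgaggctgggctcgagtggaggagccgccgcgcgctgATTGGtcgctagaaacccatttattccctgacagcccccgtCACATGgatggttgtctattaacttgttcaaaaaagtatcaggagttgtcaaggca
PDGFRA, upstream start, chr4:54229043-54229342, plus strand: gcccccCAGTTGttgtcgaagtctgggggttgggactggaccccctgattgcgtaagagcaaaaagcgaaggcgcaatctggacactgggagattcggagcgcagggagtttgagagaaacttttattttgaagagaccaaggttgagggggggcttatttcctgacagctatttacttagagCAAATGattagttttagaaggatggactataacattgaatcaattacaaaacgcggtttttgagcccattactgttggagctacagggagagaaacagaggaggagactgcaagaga
PDGFRA, downstream start, chr4:54233710-54234009, plus strand: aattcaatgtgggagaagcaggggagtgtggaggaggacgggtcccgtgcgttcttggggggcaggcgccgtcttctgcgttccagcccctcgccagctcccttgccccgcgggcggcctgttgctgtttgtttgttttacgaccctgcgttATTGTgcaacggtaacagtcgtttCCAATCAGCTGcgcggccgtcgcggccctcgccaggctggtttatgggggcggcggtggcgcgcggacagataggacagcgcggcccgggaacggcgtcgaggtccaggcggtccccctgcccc
CD44, chr11:35138921-35139220, plus strand: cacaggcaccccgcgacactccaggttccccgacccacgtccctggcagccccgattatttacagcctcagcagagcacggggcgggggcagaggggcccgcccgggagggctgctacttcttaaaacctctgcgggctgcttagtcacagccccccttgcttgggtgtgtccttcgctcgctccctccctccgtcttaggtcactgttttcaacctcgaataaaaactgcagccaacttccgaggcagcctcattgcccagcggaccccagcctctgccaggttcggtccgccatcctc
The downstream PDGFRA window held a CCAAT box, an E-box directly beside it and a SOX core, and the upstream window held 2 E-boxes. The NES window held 2 SOX cores, the SOX2 window a CCAAT box and an E-box, and the VIM and CD44 windows none of the 3. These letters thus did not set the 4 genes that were lower in both clones apart from CD44. Such letters are common, since 34.6% of 35116 RefSeq windows of this length held a CCAAT box, 27.4% a SOX core and 68.7% an E-box on either strand. GC boxes (GGGCGG or CCGCCC), held by 45.0% of all windows, were found in the NES window 4 times, in the CD44 and downstream PDGFRA windows 2 times each and in the SOX2 and VIM windows 1 time each. The letters are a description of these windows and say nothing of binding.

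Upon TMZ, NES, VIM, SOX2 and PDGFRA were lower in both clones, OLIG2 was lower in Surv-GFP, and CD44 was slightly higher in SurvNESmut-GFP. In Surv-GFP, 0 of the 6 tested markers were higher and 5 were lower, beside 30.1% of the 14201 tested genes higher and 28.9% lower. In SurvNESmut-GFP, 1 marker was higher and 4 were lower, beside 18.6% of genes higher and 19.1% lower. The 6 markers had a median of -0.70 on the log2 scale in the Surv-GFP clone and of -0.24 in the other clone, whereas all tested genes had medians of 0 and 0.003. Counts of 0 called genes for the markers or a list, here and below, were checked in the fit of all 8 libraries. Each such count was also 0 at an unadjusted p of 0.05 and by DESeq2. This does not cover counts of 0 with a library left out. Where the libraries of groups are said here and below to lie apart, the share of all tested genes that do so is not given. Such statements are description only. In bulk RNA, fewer cells that carry a marker and less of its RNA per cell cannot be told apart.

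**Figure D1:**
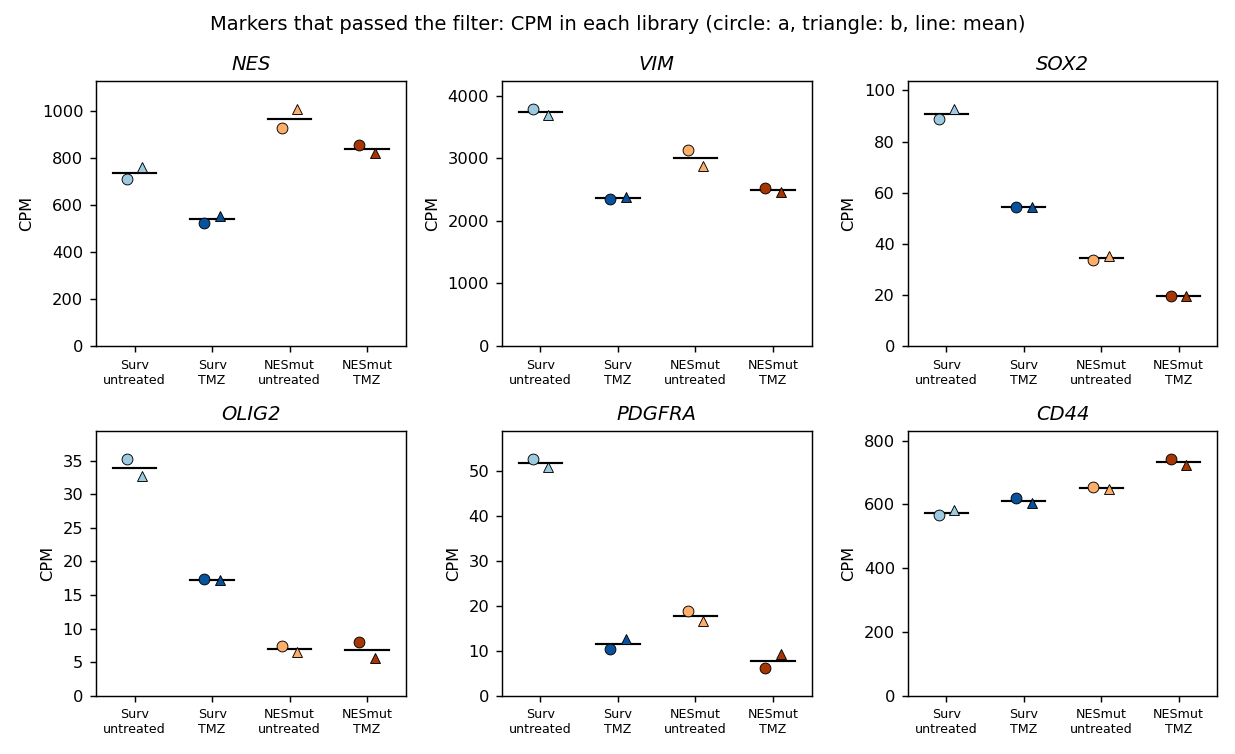
Level of the 6 markers that passed the filter, in CPM (vertical axes starting at 0), in each library of the 4 groups (horizontal axes). Circles and triangles are libraries a and b, and lines are group means. The 2 libraries of each TMZ group sit below both untreated libraries of their clone for NES, VIM, SOX2 and PDGFRA, and above them for CD44. The share of all tested genes that separate in this way is not given.

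Among the filament genes, VIM was lower upon TMZ in both clones. Its CPM (reads per 1000000 on TMM-scaled library sizes) was 3783 and 3696 in untreated Surv-GFP and 2348 and 2387 upon TMZ. In SurvNESmut-GFP it was 3135 and 2873 untreated and 2531 and 2466 upon TMZ. The groups of each clone did not overlap, and the drop was the deeper one in Surv-GFP. The log2 fold change was -0.66 ± 0.05 (SE; adjusted p = 2.95e-09) in Surv-GFP and -0.27 ± 0.05 (0.000219) in SurvNESmut-GFP, by edgeR's quasi-likelihood F test with Benjamini-Hochberg adjustment over all tested genes, as for every adjusted p below. The difference between these changes was 0.39 on the log2 scale (95% interval 0.26 to 0.53; adjusted p = 0.000157).

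Nestin followed the same direction at a smaller size. Its CPM was 711 and 760 in untreated Surv-GFP and 524 and 554 upon TMZ, and in SurvNESmut-GFP 925 and 1005 untreated and 852 and 818 upon TMZ. All 4 SurvNESmut-GFP libraries lay above all 4 Surv-GFP libraries. Nestin thus changed by -0.45 ± 0.05 on the log2 scale (adjusted p = 1.89e-06) in Surv-GFP and -0.21 ± 0.05 (0.0052) in SurvNESmut-GFP. These changes differed by 0.24 (95% interval 0.08 to 0.40; adjusted p = 0.0189), a call that was lost when untreated Surv-GFP b, TMZ-exposed Surv-GFP a or untreated SurvNESmut-GFP a was left out (adjusted p of 0.116, 0.0952 and 0.112). Without untreated SurvNESmut-GFP b, the NES change within SurvNESmut-GFP missed the threshold as well (adjusted p = 0.0916).

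GFAP, the filament of mature astrocytes, was close to the limit of detection. Its read counts were 17 and 6 in untreated Surv-GFP, 2 and 0 upon TMZ, 8 and 10 in untreated SurvNESmut-GFP and 3 and 4 upon TMZ. Both TMZ groups lay below both untreated groups. The ratio of TMZ to untreated counts, scaled to library size, was 0.0880 in Surv-GFP (95% interval 0.0101 to 0.356) and 0.430 in SurvNESmut-GFP (0.152 to 1.08). These intervals cover counting error only, and the untreated Surv-GFP libraries themselves lay far apart. Without the filter, GFAP was called lower upon TMZ in Surv-GFP (adjusted p = 0.000946) and was not called in SurvNESmut-GFP (0.244). With a library left out, it passed the filter except without untreated Surv-GFP a, the library with 17 reads. These fits thus tested GFAP only because that library was high, and they add no support for a lower level in Surv-GFP. In the GENCODE 29 annotation 18.4% of the GFAP exon bases overlap exons of the opposite-strand genes CCDC103 and FAM187A, and whether the libraries were stranded is not stated in the sources.

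**Figure D2:**
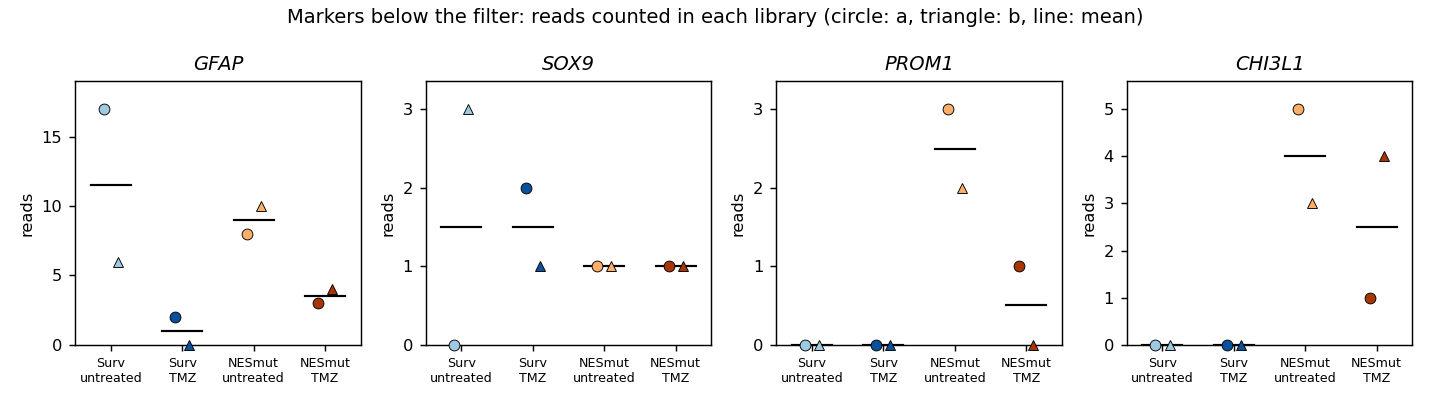
Reads counted for the 4 markers that did not pass the filter (vertical axes, reads per library, starting at 0) in the 4 groups (horizontal axes). Circles and triangles are libraries a and b, and lines are group means. GFAP reaches at most 17 reads, and PROM1 and CHI3L1 have 0 reads in all 4 Surv-GFP libraries.

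Among the transcription factors, SOX2 fell in both clones. Its CPM was 88.8 and 92.6 in untreated Surv-GFP, 54.3 and 54.5 upon TMZ, 33.6 and 35.2 in untreated SurvNESmut-GFP and 19.4 and 19.7 upon TMZ. The 4 groups did not overlap, and the TMZ-exposed Surv-GFP cells still held more SOX2 RNA than untreated SurvNESmut-GFP cells. On the log2 scale the change was -0.74 ± 0.06 (adjusted p = 8.05e-09) in Surv-GFP and -0.81 ± 0.07 (1.83e-07) in SurvNESmut-GFP. The difference of the changes was -0.08 with a 95% interval from -0.27 to 0.11 (adjusted p = 0.540), which is an interval that still holds differences of up to 0.27 in size.

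SOX2-OT, the long transcript within which SOX2 lies, was looked at after its values were seen. Its log2 fold change upon TMZ was -1.28 ± 0.11 (adjusted p = 7.38e-08) in Surv-GFP and -0.98 ± 0.16 (0.000129) in SurvNESmut-GFP. It was thus lower upon TMZ in both clones, as SOX2 was. No exon overlap between the pair is listed in GENCODE 29.

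OLIG2 was lower upon TMZ in Surv-GFP, and no change was called in SurvNESmut-GFP. Its CPM was 35.2 and 32.7 in untreated Surv-GFP and 17.4 and 17.2 upon TMZ, a 1.97-fold lower level. In SurvNESmut-GFP it was 7.37 and 6.50 untreated and 8.07 and 5.55 upon TMZ, where the TMZ libraries lay on both sides of the untreated ones. The OLIG2 change was -0.98 ± 0.10 on the log2 scale (adjusted p = 5.62e-07) in Surv-GFP and -0.02 ± 0.16 (95% interval -0.36 to 0.32; adjusted p = 0.937) in SurvNESmut-GFP. The difference of the changes was 0.96 (95% interval 0.55 to 1.36; adjusted p = 0.000936). The SurvNESmut-GFP value changed sign with the library left out, from -0.32 without TMZ-exposed replicate a to 0.22 without replicate b. The difference of the changes was 0.65 without TMZ-exposed SurvNESmut-GFP a (adjusted p = 0.0122) and 1.19 without b (4.78e-06). SOX9, a factor of astrocyte precursors, had between 0 and 3 reads in each library and at most 3 over a group, so no fold is given.

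Among the surface proteins, PDGFRA showed the deepest drop of the 6 tested markers in both clones. Its CPM was 52.6 and 50.9 in untreated Surv-GFP and 10.4 and 12.6 upon TMZ, a 4.52-fold lower level. In SurvNESmut-GFP it was 18.9 and 16.7 untreated and 6.14 and 9.33 upon TMZ, a 2.32-fold lower level. The untreated and TMZ libraries did not overlap in either clone. The log2 fold change was -2.18 ± 0.12 (adjusted p = 1.3e-10) in Surv-GFP and -1.21 ± 0.15 (7.04e-06) in SurvNESmut-GFP. These values differed by 0.96 (95% interval 0.55 to 1.38; adjusted p = 0.00108). Only 0.655% of all tested genes had a lower log2 fold change than PDGFRA in Surv-GFP and 1.58% in SurvNESmut-GFP. In GENCODE 29, 15.8% of its exon bases overlap a second gene model on the same strand, AC058822.1.

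CD44 changed little. Its CPM was 566 and 582 in untreated Surv-GFP and 619 and 604 upon TMZ, and in SurvNESmut-GFP 656 and 650 untreated and 742 and 723 upon TMZ. In each clone both TMZ libraries lay above both untreated ones, by a small step. The log2 fold change was 0.09 (95% interval -0.003 to 0.18; adjusted p = 0.0899) in Surv-GFP and 0.17 ± 0.04 (0.00735) in SurvNESmut-GFP, with a difference of 0.07 (95% interval -0.06 to 0.21; adjusted p = 0.380). Both values stood near the threshold: without untreated SurvNESmut-GFP b, the change in SurvNESmut-GFP had an adjusted p of 0.0553, and without SurvNESmut-GFP TMZ a or b that in Surv-GFP had one of 0.0399 or 0.0405.

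PROM1 (CD133), the surface protein most often used to sort glioma stem cells, had 0 reads in the 4 Surv-GFP libraries. In SurvNESmut-GFP it had 3 and 2 reads untreated and 1 and 0 upon TMZ. CHI3L1 likewise had 0 reads in the Surv-GFP libraries, and 5 and 3 reads in untreated SurvNESmut-GFP and 1 and 4 upon TMZ. With the 0 reads set at a floor of 3 counts over a group, CHI3L1 was at least 2.68-fold higher in untreated SurvNESmut-GFP than in Surv-GFP and PROM1 at least 1.67-fold higher. The exact 95% intervals of these ratios, which cover counting error only, started lower, at 1.71 and 0.92, so that of PROM1 still held no difference. Without the filter, edgeR called CHI3L1 higher in untreated SurvNESmut-GFP (adjusted p = 0.0344) but not PROM1 (0.124). Both were at the edge of detection at this depth.

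**Figure D3:**
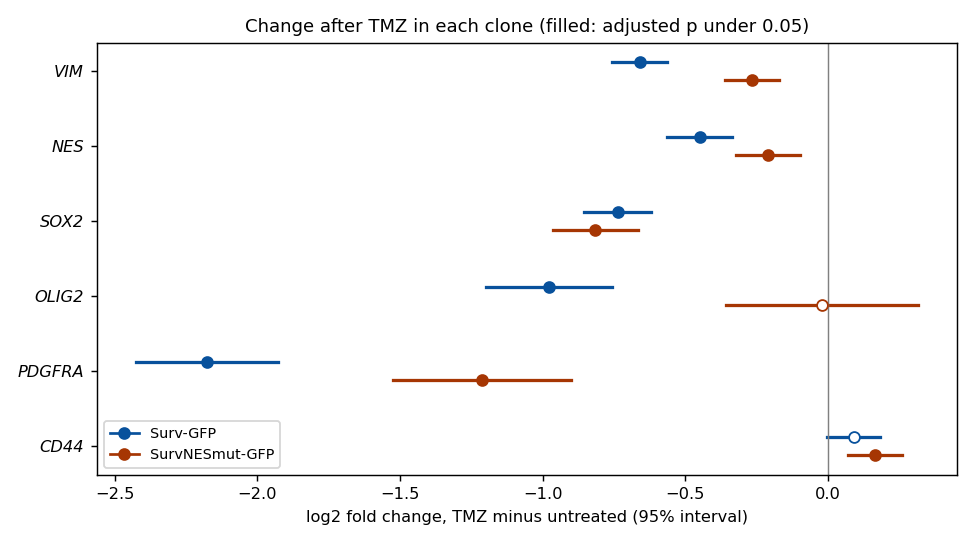
Log2 fold change upon TMZ (horizontal axis, TMZ minus untreated) for the 6 tested markers in Surv-GFP and SurvNESmut-GFP. Points are estimates from edgeR, bars are 95% intervals, and filled points passed an adjusted p of 0.05. For PDGFRA, OLIG2, VIM and NES the SurvNESmut-GFP value lies to the right of the Surv-GFP value, and for SOX2 the intervals overlap.

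The change upon TMZ was thus less negative in SurvNESmut-GFP for 4 of the 6 tested markers, NES, VIM, OLIG2 and PDGFRA. By the test of the difference of the changes, 4 markers were higher and 0 lower, beside 16.6% of tested genes higher and 20.2% lower. The call for NES depended on single libraries, as given above. The TMZ effects of the clones share no library, whereas each clone difference shares its libraries with both TMZ effects. With library size alone in place of TMM, the split over all genes moved to 2909 higher and 2385 lower from 2355 and 2871, and that of the TMZ effect in SurvNESmut-GFP to 3124 and 2236 from 2648 and 2719, while the markers' calls stayed as given.

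Without TMZ, the clones already differed in all 6 tested markers. NES and CD44 were higher in SurvNESmut-GFP, and VIM, SOX2, OLIG2 and PDGFRA were lower, so 2 markers were higher and 4 lower, beside 34.7% of all tested genes higher and 29.4% lower. OLIG2 was 4.89-fold lower (log2 fold change -2.29 ± 0.12, adjusted p = 7.88e-11), PDGFRA 2.90-fold lower (-1.54 ± 0.11, 2.96e-09) and SOX2 2.64-fold lower (-1.40 ± 0.06, 3.8e-12). These 3 are the proneural markers among the 10. The other steps were small, with log2 fold changes of 0.39 for NES (adjusted p = 6.53e-06), -0.32 for VIM (1.27e-05) and 0.19 for CD44 (0.00154).

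With TMZ, 2 markers were higher in SurvNESmut-GFP and 3 lower, beside 34.5% of genes higher and 34.7% lower. SOX2 was lower in SurvNESmut-GFP by a log2 fold change of -1.48 ± 0.07 (adjusted p = 1.16e-11). The distance in OLIG2 was -1.33 ± 0.14 (2.09e-07) and that in PDGFRA -0.57 ± 0.16 (0.00416). The PDGFRA call was lost without TMZ-exposed Surv-GFP b or SurvNESmut-GFP a (adjusted p of 0.0531 and 0.0524). VIM differed by 0.08 (95% interval -0.02 to 0.17; adjusted p = 0.137), whereas NES was 0.63 ± 0.05 higher (2.12e-08) and CD44 0.26 ± 0.04 higher (6.26e-05).

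**Figure D4:**
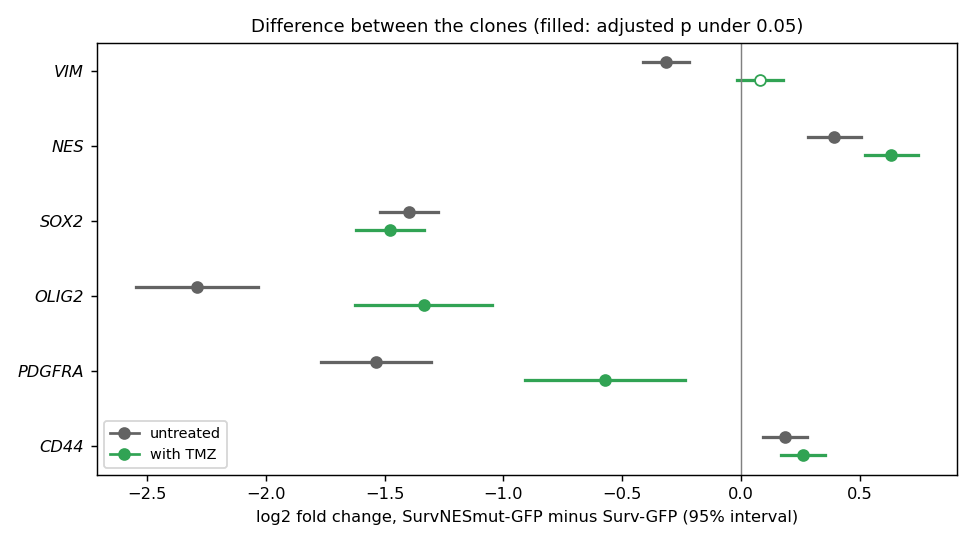
Log2 fold change between the clones (horizontal axis, SurvNESmut-GFP minus Surv-GFP) for the 6 tested markers, untreated and with TMZ. Points are estimates from edgeR, bars are 95% intervals, and filled points passed an adjusted p of 0.05. SOX2, OLIG2 and PDGFRA lie left of 0 and NES and CD44 right of 0 in both states.

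To set the genes side by side, CPM was divided by the length of the merged exons in GENCODE 29, which is an approximation, since no source names the annotation behind the counts. In untreated Surv-GFP, VIM stood at 725 ± 11.9 CPM per kilobase (SD, n = 2), NES at 132 ± 6.23, CD44 at 57.4 ± 1.13, SOX2 at 36.1 ± 1.05, OLIG2 at 10.1 ± 0.527 and PDGFRA at 5.32 ± 0.122. GFAP stood at 0.0517 ± 0.0345. This order of the 6 held in all 4 groups by group mean. In untreated SurvNESmut-GFP the neighbours OLIG2 (2.07 ± 0.184) and PDGFRA (1.83 ± 0.160) did not differ beyond their spread. The cells thus held much vimentin and nestin RNA and hardly any GFAP RNA.

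The markers also shared patterns over the 8 libraries, given as Pearson correlations of log2 CPM that rest on 4 groups with shared clones and exposures and carry no test. SOX2 ran with OLIG2 (r = 0.929) and against CD44 (r = -0.983), and VIM ran with PDGFRA (r = 0.927). NES stood apart, with r between -0.575 (OLIG2) and 0.469 (CD44). VIM-AS1, an antisense gene that overlaps 12.4% of the VIM exon bases and was looked at after its values were seen, ran with VIM (r = 0.927). Without known strand, reads that lie on the shared bases cannot be told apart. The genes most like each marker were PCDH10 (0.997) and RAB5B (0.996) for SOX2, KIF21B (0.995) and SMARCD3 (0.994) for OLIG2, HOXB13 (0.997) and EXTL2 (0.997) for PDGFRA, FAM208A (0.996) and NLGN2 (0.996) for NES, NOA1 (0.995) and PPAP2B (0.995) for VIM, and PORCN (0.995) and PLCB4 (0.993) for CD44.

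The wider oligodendrocyte lineage list moved the same way as OLIG2 and PDGFRA in Surv-GFP. Of its 13 tested genes, 0 were higher and 10 lower upon TMZ in each clone, and the list's median was -1.07 on the log2 scale in Surv-GFP and -0.44 in the NES-mutated clone. MBP, 1 of the 13, had 0 reads in both Surv-GFP groups, so no change could be called for it there. Beside this list and those below stand the shares of all tested genes called upon TMZ. These were 30.1% higher and 28.9% lower in Surv-GFP and 18.6% and 19.1% in SurvNESmut-GFP. Without OLIG2 and PDGFRA themselves, 8 of 11 were lower in Surv-GFP and 9 of 11 in SurvNESmut-GFP. OLIG1, the partner of OLIG2, stood at 4.82 CPM in untreated Surv-GFP and 0.640 upon TMZ (log2 fold change -2.90 ± 0.33, adjusted p = 1.12e-06). SOX8, a factor of glial precursors, changed by -1.84 ± 0.17 on the log2 scale in Surv-GFP (adjusted p = 8.36e-08) and by -1.79 ± 0.17 in SurvNESmut-GFP (4.87e-07). CSPG4 (NG2), a proteoglycan of oligodendrocyte precursors, fell by 1.54 ± 0.15 in SurvNESmut-GFP (7.49e-07).

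Proneural genes showed a like count. Of 12 tested, 0 were higher and 10 lower upon TMZ in Surv-GFP, and 1 was higher and 8 lower in SurvNESmut-GFP, of which SOX2, OLIG2 and PDGFRA supply 3 and 2 of the lower ones. The 1 higher gene was NCAM1, an adhesion molecule of nerve cells, named after its values were seen, at 0.24 on the log2 scale (adjusted p = 0.00533), a call that was lost without untreated SurvNESmut-GFP b (0.0524). In untreated cells 10 of the 12 were lower in SurvNESmut-GFP, beside 29.4% of all tested genes. Their median log2 fold change was -1.55 beside 0.03 over all tested genes. PTPRZ1, a receptor phosphatase of glial precursors, was the furthest apart (392 CPM in untreated Surv-GFP, 51.8 in untreated SurvNESmut-GFP; log2 fold change -2.92 ± 0.13, adjusted p = 6.58e-12). NKX2-2, a factor of oligodendrocyte precursors, fell by 1.07 ± 0.08 upon TMZ in Surv-GFP (7.23e-09).

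The astrocyte list was only partly present. ALDH1L1 and GJB6 had no read in any library, and AQP4, SLC1A2, SOX9 and GFAP were too low to test. Among its 9 tested members 2 rose and 6 fell upon TMZ in Surv-GFP, and 1 was higher and 6 lower in SurvNESmut-GFP. FABP7, a fatty acid binding protein of radial glia, changed by -1.99 ± 0.09 on the log2 scale in Surv-GFP (adjusted p = 7.71e-12) and by -1.25 ± 0.16 in SurvNESmut-GFP (1.12e-05). The 2 that rose in Surv-GFP were APOE (0.42 ± 0.10, 0.00171) and GJA1 (0.39 ± 0.06, 4.66e-05), and the 1 higher in SurvNESmut-GFP was SLC1A3 (1.90 ± 0.12, 6.67e-09). Between the untreated clones, 2 of the 9 were higher in SurvNESmut-GFP and 5 lower, beside 34.7% and 29.4% of all tested genes. S100B, a calcium-binding protein of glia, was at 777 CPM in untreated Surv-GFP and 40.6 in untreated SurvNESmut-GFP (log2 fold change -4.26 ± 0.09, adjusted p = 1.38e-15). CLU (1.40 ± 0.16, 1.01e-06) and ALDOC (0.91 ± 0.13, 1.55e-05) were the 2 higher ones.

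**Figure D5:**
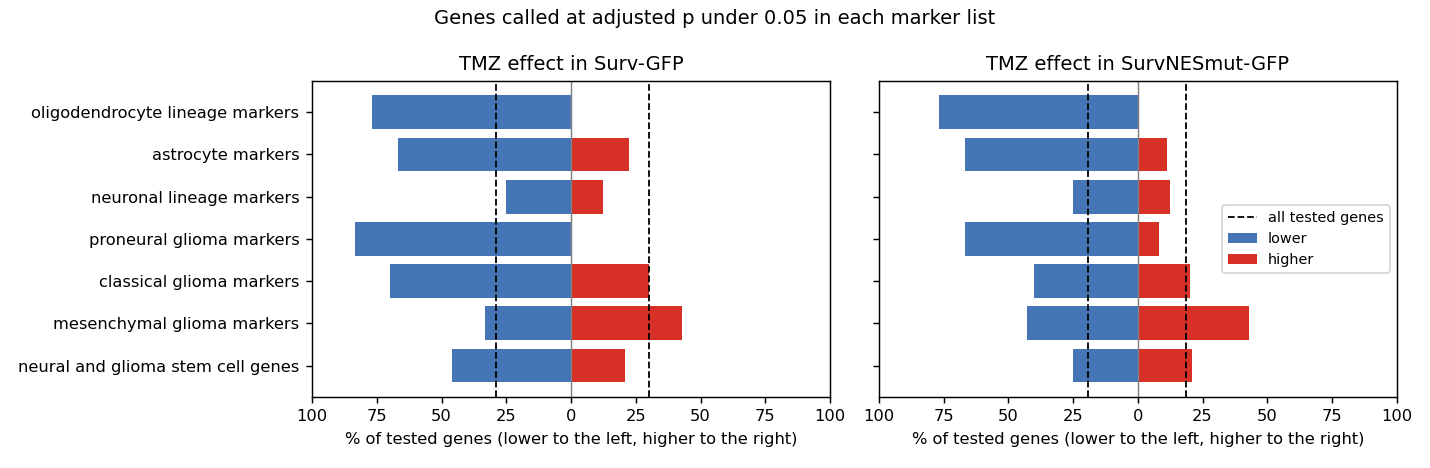
Share of the tested genes of 7 marker lists that were called lower (bars to the left) or higher (bars to the right) upon TMZ at an adjusted p of 0.05, in each clone (horizontal axes in percent). Dashed lines are the shares over all tested genes. In the oligodendrocyte lineage list 10 of 13 genes were lower in each clone and 0 higher.

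The mesenchymal list, which holds VIM, CD44 and CHI3L1, moved both ways, as did all tested genes by the shares given above. Of 21 tested genes, 9 were higher and 7 lower upon TMZ in Surv-GFP and 9 were higher and 9 lower in SurvNESmut-GFP. The count of 7 was 4 without untreated Surv-GFP b. RELB, a subunit of NF-kappa B, was 2.08 ± 0.10 higher on the log2 scale upon TMZ in Surv-GFP (adjusted p = 4.39e-11).

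Of the 10 tested classical glioma genes, with NES among them, 3 were higher and 7 lower upon TMZ in Surv-GFP and 2 were higher and 4 lower in SurvNESmut-GFP. JAG1, a Notch ligand, was higher in both clones, at 45.5 CPM untreated and 257 upon TMZ in Surv-GFP (adjusted p = 2.23e-12) and at 48.5 and 96.6 in SurvNESmut-GFP (1.01e-06). GAS1, a co-receptor of Hedgehog signalling, and FGFR3 were lower in Surv-GFP, with log2 fold changes of -1.53 ± 0.13 and -1.39 ± 0.11 (5.15e-08 and 1.81e-08). Of the 8 tested neuronal genes, 1 was higher and 2 lower in each clone. With so few genes, these counts do not set the list apart from the shares of all tested genes. In SurvNESmut-GFP the 1 higher gene was again NCAM1, and the count was 0 without untreated SurvNESmut-GFP b and 2 with library size alone or without TMZ-exposed SurvNESmut-GFP a. MAP2, a microtubule protein of neurons, was among the lower genes in both clones, by -1.41 ± 0.07 in Surv-GFP (1.02e-10) and -0.50 ± 0.12 in SurvNESmut-GFP (0.00301) on the log2 scale.

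Stem cell genes moved both ways, as did all tested genes. Of 24 tested, 5 were higher and 11 lower upon TMZ in Surv-GFP and 5 were higher and 6 lower in SurvNESmut-GFP, and the counts of higher genes ranged from 3 to 6 and from 2 to 5 over the alternatives. In SurvNESmut-GFP the 5 higher and 6 lower of 24 were close to the shares of all tested genes (18.6% higher and 19.1% lower). KLF4, a pluripotency factor, was higher in both clones, by 2.70 ± 0.12 (adjusted p = 1.13e-11) and 1.34 ± 0.10 (4.98e-08). POU3F2, a neural factor that acts with SOX2 in glioma cells, was lower, with log2 fold changes of -1.61 ± 0.09 (2.82e-10) and -0.93 ± 0.09 (9.81e-07). NANOG had no read, and PROM1, MSI1 and POU5F1 were too low to test.

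Around the single markers, the tested SOX factors were lower upon TMZ in 7 of 9 cases in each clone, with 0 higher in the Surv-GFP clone and 1 in the NES-mutated clone, and SOX4 fell by 1.06 ± 0.09 in Surv-GFP (adjusted p = 5.36e-08). Among the 4 tested filament genes, synemin (SYNM), a partner of vimentin, changed by -0.83 ± 0.05 on the log2 scale in Surv-GFP (5.16e-10) and by -0.36 ± 0.05 in SurvNESmut-GFP (1.59e-05), while the linker plectin (PLEC) was 0.46 ± 0.07 and 0.28 ± 0.07 higher (4.49e-05 and 0.00583). The PLEC call in SurvNESmut-GFP was lost by DESeq2 (adjusted p = 0.0802), without untreated SurvNESmut-GFP a (0.0629) and without TMZ-exposed SurvNESmut-GFP a (0.0689), where the log2 fold change was 0.12. Of the 10 PDGF pathway genes, 3 were higher and 5 lower in Surv-GFP and 3 and 3 in SurvNESmut-GFP. The PDGFRA ligand PDGFC was higher upon TMZ in both clones, by 1.64 ± 0.05 (1.77e-13) and 0.68 ± 0.05 (2.16e-08), and the sister receptor PDGFRB was lower, with log2 fold changes of -0.82 ± 0.15 (0.000164) and -1.03 ± 0.15 (4.76e-05). The ligand and both receptors thus moved in opposite directions.

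Of the 16 tested hyaluronan and CD44 partner genes, 4 were higher and 7 lower in Surv-GFP and 4 and 6 in SurvNESmut-GFP. HMMR, another hyaluronan receptor, which is also a mitotic spindle protein, was lower in both clones, with log2 fold changes of -1.46 ± 0.09 (adjusted p = 3.47e-10) and -1.31 ± 0.09 (1.15e-08). Among the 5 tested genes around CHI3L1, the proteoglycan syndecan-1 (SDC1) was 0.79 ± 0.08 higher in Surv-GFP and 1.63 ± 0.07 higher in SurvNESmut-GFP (1.59e-07 and 3.38e-11). Of the 3 tested prominin partners, 0 were higher and 2 lower in Surv-GFP and 0 were called in SurvNESmut-GFP. TTYH1, 1 of the 2, had 3 reads in untreated and 2 in TMZ-exposed SurvNESmut-GFP, too few for a call there.

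Markers of other cell types were given for the libraries as a whole. Of 10 microglia and macrophage genes only CD68 was high enough to test, AIF1, CX3CR1 and TYROBP had no read, and the summed level of the list lay between 12.1 and 22.3 CPM. Of 7 endothelial genes 2 were tested, CLDN5 had no read, and the sum lay between 2.35 and 5.26 CPM. The sum of 6 epithelial genes, of which KRT8 and KRT18 were tested, was 156 to 157 CPM in untreated and 306 to 312 in TMZ-exposed Surv-GFP, and 141 to 147 and 206 to 237 in SurvNESmut-GFP. All 9 fibroblast and pericyte genes were tested, with sums of 216 to 227 CPM in untreated and 307 to 313 in TMZ-exposed Surv-GFP, and of 985 to 989 and 833 to 907 in SurvNESmut-GFP. The epithelial sum was higher upon TMZ in both clones and, with TMZ, lower in SurvNESmut-GFP. The fibroblast sum was higher in SurvNESmut-GFP in both states, and upon TMZ it was higher in Surv-GFP and lower in SurvNESmut-GFP. The part of these sums in the marker results was not tested.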

How the data were processed

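The authors deposited raw read counts by gene symbol (whole numbers, not normalized) for 8 libraries. The submitters' processing notes name STAR 2.5.0b, Cufflinks 2.2.1 and edgeR, but the sources used here give no build, annotation or strandedness. The authors' 5 comparison tables, deposited with log2 fold changes, average log2 CPM, F scores and p-values, were not used. The 2 rows that name no gene, at 11.2% to 14.3% (no feature) and 1.19% to 1.28% (ambiguous) of reads, were left out.

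Groups came from the sample labels. Counts were fitted in R 4.3.3 with edgeR 4.0.16 (quasi-likelihood F test, TMM, filter by group) as 4 group means over 8 libraries, with 4 residual degrees of freedom, Benjamini-Hochberg adjustment over 14201 genes and a threshold of 0.05. In counts simulated for the TMZ effect in Surv-GFP over 13936 genes, edgeR called 181 of 200 genes changed 2-fold and 2 unchanged genes. The simulation changed only these 200 genes and took its spread from these libraries. In the data, 30.1% of tested genes were called higher and 28.9% lower in this comparison. The simulated count of false calls thus does not carry over to the data. A count of 0 allows up to 3 counts. DESeq2 1.42.0, other scalings and filters, the replicate letter as a block and each library left out were the alternatives.

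The 10 markers and 17 gene lists were chosen with earlier results of these data known. Named genes were the markers, at most 2 called genes of each list in each direction with the largest change and a mean of at least 1 CPM, the 2 nearest patterns per tested marker, and CDKN1A and BIRC5. A few genes that this rule selects are not described.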

Additional observations from a re-analysis of the deposited data

Results flagged for a closer look

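For 4 markers the change upon TMZ differed between the clones by the test of the difference itself. For NES this call depended on single libraries, as given above. The log2 fold change in SurvNESmut-GFP minus that in Surv-GFP was 0.24 for NES, 0.39 for VIM, 0.96 for OLIG2 and 0.96 for PDGFRA. Each value is positive because the level fell less, or showed no called change, in SurvNESmut-GFP. For OLIG2 the SurvNESmut-GFP groups held 253 reads untreated and 226 upon TMZ, and the Surv-GFP groups 1243 and 624. Why the changes differ was not tested.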

How the results depend on the processing

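Over the 6 tested markers, 5 comparisons and all alternatives, 462 values kept their direction and their side of the threshold, 7 lost the call, 2 gained it and 3 changed sign. The sign changes all concerned OLIG2 upon TMZ in SurvNESmut-GFP, which was not called in any setting. Its log2 fold change was 0.0155 with library size alone, and from -0.32 to 0.22 with a library left out (0.07 without untreated replicate a). The number of markers higher upon TMZ lay between 0 and 1 in each clone when libraries were left out. It was 0 in SurvNESmut-GFP without untreated SurvNESmut-GFP b and 1 in Surv-GFP without SurvNESmut-GFP TMZ a or b, in each case through CD44. The number lower in Surv-GFP was 6 in place of 5 without the filter and in 7 of the 8 fits that left out a library, through GFAP, and that in SurvNESmut-GFP was 3 in place of 4 without untreated SurvNESmut-GFP b, through NES. Without the filter, 3 in place of 2 markers were higher in untreated SurvNESmut-GFP than in Surv-GFP, through CHI3L1. The number of markers higher by the difference of the changes was smaller in some fits that left out a library, through NES. With library size alone, the CD44 level of untreated SurvNESmut-GFP was 638.5 CPM in place of 653.1, and that of SOX9 there 0.0537 in place of 0.0549. The differences between letters correlated at -0.067 to 0.083 between groups, so no effect of the letter shared between groups was seen. Whether the letters pair the samples is not stated in the sources. A replicate block changed no call of a marker, and gave for example -2.18 for PDGFRA upon TMZ in Surv-GFP. The median over all genes moved by at most 0.06 on the log2 scale between scalings. Among lists, the proneural and oligodendrocyte counts of lower genes upon TMZ stayed within 1.5 times in every setting. With 2 libraries per group, and 0 to 17 reads for GFAP, SOX9, PROM1 and CHI3L1, changes in these 4 rest on few reads. They were tested only where an alternative let them pass the filter, and SOX9 and PROM1 were not called there. With a library left out, GFAP passed it only through the 17 reads of untreated Surv-GFP a.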

Other observations

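SLC1A3, a glutamate transporter of astrocytes, moved in opposite directions upon TMZ. It stood at 13.3 CPM in untreated and 3.55 in TMZ-exposed Surv-GFP, and at 8.16 and 30.5 in SurvNESmut-GFP. The changes differed by 3.82 ± 0.20 on the log2 scale (adjusted p = 1.11e-09, edgeR's quasi-likelihood F test). PTPRZ1 and CSPG4 fell further in SurvNESmut-GFP, with differences of -1.06 ± 0.19 (0.000433) and -1.17 ± 0.21 (0.000378), against the direction seen for PDGFRA and OLIG2. CHI3L2, the relative of CHI3L1, was higher upon TMZ in SurvNESmut-GFP (24.1 to 55.3 CPM; log2 fold change 1.19 ± 0.13, 3.4e-06).

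Several genes around the markers were close to absent, or far lower, in one clone. MBP, a myelin protein, had 0 reads in untreated Surv-GFP and 243 in untreated SurvNESmut-GFP, at least 81.3-fold higher with the 0 reads set at a floor of 3 counts over a group (the exact 95% interval from counting error started at 65.6). PDGFB, a PDGF ligand, had 2 and 1531 reads, a ratio of 768 (95% interval 212 to 6350 from counting error alone). TTYH1, a prominin partner, had 409 reads in untreated Surv-GFP and 3 in untreated SurvNESmut-GFP, a ratio of 136 (46.2 to 661). COL1A2, a collagen chain, was at 3.09 CPM in untreated Surv-GFP and 498 in untreated SurvNESmut-GFP (log2 fold change 7.33 ± 0.14, adjusted p = 1.32e-15). L1CAM, an adhesion molecule used as a stem cell marker, was at 9.25 and 221 CPM (4.58 ± 0.07, 2.83e-16).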
